A study of Mus musculus with 9 samples.

Results

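The genes described here are 10 genes that act on the kinase complex mTORC1, most of them by reporting amino acid supply to it. They are the sestrins Sesn1, Sesn2 and Sesn3, the arginine sensor gene Castor1, the GATOR1 subunit gene Depdc5, the Rag GTPase genes Rragc and Rragd, their regulator Flcn, and the genes of the mTOR inhibitors, Ddit4 and Deptor. They were chosen by symbol, with earlier results of these data known. The symbols were matched through the GENCODE names of the Ensembl identifiers in the count table, and all 10 were found among its 20189 genes.

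mTORC1 drives protein synthesis and cell growth, and it is switched on at the lysosome surface by Rag GTPases, which work as pairs of RagA or RagB with RagC or RagD. When amino acids are short, the GATOR1 complex turns off RagA and RagB, and the sestrins and CASTOR1 protect GATOR1 by holding its inhibitor, GATOR2. Leucine releases SESN2 and arginine releases CASTOR1 from GATOR2, while folliculin acts on RagC and RagD, and DDIT4 and DEPTOR restrain mTOR by routes of their own.

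E14 cells are a wild-type line of mouse embryonic stem (ES) cells, grown without feeder cells on gelatin with serum and leukemia inhibitory factor (LIF). By their titles, 3 samples were starved of threonine (Thr-starved), 3 were starved of cysteine (Cys-starved) and 3 were unstarved, with a treatment of 3 h, and poly(A) RNA of each was sequenced. The control medium held all amino acids. The treatment label describes a SILAC medium with dialyzed serum, LIF, β-mercaptoethanol, glucose, GlutaMAX and lysine that is named there for arginine and leucine withdrawal, so the exact medium of the Thr and Cys samples is not given in the sources used here. The 9 samples share the genotype and the line, and the study's methods describe its RNA samples as pooled on a shared sequencing kit. The column names of the unstarved samples carry a tag that those of the starved samples lack. Its meaning is not given, so a difference in handling that it may mark cannot be told apart from starvation. Nothing says whether the 3 samples of a group came from separate cultures, so the p-values measure the spread between these samples.

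Total counts ranged from 48763102 to 74962733 per library. All 7 ES cell markers stood at 5 CPM (counts scaled to 1000000 per library) or more in every group and summed to between 3204 and 3586 CPM per library. The summed markers of fibroblasts or feeder cells (5 of 7 in the table) reached at most 15.9 CPM, those of endoderm (4 of 5) 5.43 CPM and those of mesoderm (4 of 5) 8.10 CPM. The neuroectoderm markers (3 of 4) summed to between 64.7 and 78.9 CPM, mostly Nes. In RNA from whole cultures, fewer cells of a type and less RNA per cell cannot be told apart.

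Thr starvation changed all 10 genes and Cys starvation changed 9 of them, where 80.6% and 55.0% of the genes at a mean of 5 CPM or more were called. With Thr starvation Sesn2, Ddit4, Flcn, Rragc and Sesn3 rose, and Castor1, Rragd, Sesn1, Depdc5 and Deptor fell. The largest of these changes were a fall of Castor1 to 0.271 of its unstarved level and a rise of Sesn2 by 2.49-fold. With Cys starvation Ddit4 rose most, by 2.46-fold, Sesn2 rose by 1.45-fold, and the other 7 changes were of 1.23-fold or less. Rragc and Deptor moved in opposite directions in the 2 starvations.

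The DNA just before the start of these genes is shown for 5 of them, chosen for the size or the contrast of their changes: Sesn2 and Ddit4, which rose most, Castor1, which fell most, and the pair Rragc and Rragd, which moved apart with Thr starvation. The sequences are RefSeq promoters on build GRCm38.p6, read 5′ to 3′ on the strand of the gene, without bases inside the annotated gene model. The capitals mark GC boxes (GGGCGG on either strand, written CCGCCC where it lies on the other strand) and the E-box CACGTG.
Sesn2, chr4:132510502-132510706, minus strand, 205 bases: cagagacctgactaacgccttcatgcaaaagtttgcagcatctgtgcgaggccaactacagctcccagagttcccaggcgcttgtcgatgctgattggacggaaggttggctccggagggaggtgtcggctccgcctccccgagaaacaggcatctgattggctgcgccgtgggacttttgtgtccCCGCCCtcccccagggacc
Ddit4, chr10:59951835-59952020, minus strand, 186 bases: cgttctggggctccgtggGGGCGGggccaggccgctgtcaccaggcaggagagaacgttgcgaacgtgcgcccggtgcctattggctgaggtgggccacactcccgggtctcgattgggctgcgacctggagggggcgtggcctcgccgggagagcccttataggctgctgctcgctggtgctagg
Castor1, chr11:4217975-4218224, plus strand, 250 bases: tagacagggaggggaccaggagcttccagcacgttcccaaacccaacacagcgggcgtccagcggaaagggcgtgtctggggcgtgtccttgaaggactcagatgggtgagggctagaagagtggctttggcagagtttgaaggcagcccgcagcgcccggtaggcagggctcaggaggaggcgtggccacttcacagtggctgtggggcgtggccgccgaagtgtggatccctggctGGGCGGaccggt
Rragc, chr4:123917183-123917432, plus strand, 250 bases: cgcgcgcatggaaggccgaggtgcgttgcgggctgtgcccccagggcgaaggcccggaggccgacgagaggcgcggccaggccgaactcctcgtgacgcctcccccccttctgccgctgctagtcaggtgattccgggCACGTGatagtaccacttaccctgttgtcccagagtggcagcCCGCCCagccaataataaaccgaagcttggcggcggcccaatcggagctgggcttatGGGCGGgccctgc
Rragd, chr4:32982748-32982997, plus strand, 250 bases: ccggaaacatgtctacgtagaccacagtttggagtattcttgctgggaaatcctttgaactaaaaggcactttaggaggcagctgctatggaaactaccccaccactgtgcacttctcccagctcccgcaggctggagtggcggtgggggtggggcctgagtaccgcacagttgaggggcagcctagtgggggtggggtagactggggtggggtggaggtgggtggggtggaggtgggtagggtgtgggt
The search covered both strands of the 250 bases before each RefSeq start, in 10 promoters of 9 of the genes (Sesn1 has a pair, and Deptor was not matched). The E-box, a site of MYC and of TFEB and its relatives, was found in Rragc alone, with its first base 112 bases before the start, and stands in 6.02% of the 32851 promoters of the same length. GC boxes, sites of SP1, were found in Sesn2, Sesn1, Sesn3, Castor1, Ddit4, Rragc and Depdc5 and not in Rragd or Flcn, and 32.7% of all promoters hold one. The letters TGATGNAA, a form of the element that ATF4 binds with C/EBP partners, are in 3.45% of promoters and in none of these 10. The FOXO motif GTAAACA, in 3.17% of promoters, and TCACGTGA, an E-box with flanks known from lysosomal genes and in 0.785%, were in none of the 10 either. A match in letters is not a bound site, and the absence of one says only that these letters are not in this window.

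Sesn2 encodes a sestrin that senses leucine and is a known target of ATF4 and p53 (ENSMUSG00000028893, chr4:132492032-132510501, minus strand). Its counts, scaled by library with TMM factors, were 167, 174 and 171 CPM in the unstarved libraries. They were 249, 248 and 246 CPM in the Cys-starved and 422, 425 and 426.5 CPM in the Thr-starved libraries. The 3 groups did not overlap, and the steps between them were far larger than the spread within them. In edgeR's quasi-likelihood test with Benjamini-Hochberg adjustment over all genes tested, which gives every adjusted p below, Thr starvation raised Sesn2 with a log2 change of 1.31 ± 0.02 (SE, adjusted p = 3e-22). Cys starvation raised it by 0.54 ± 0.02 (adjusted p = 2.6e-14), and the Thr-starved libraries stood 0.78 above the Cys-starved ones (adjusted p = 3.4e-18).

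Sesn1, the sestrin first known as a p53 target and also a FOXO target (ENSMUSG00000038332, chr10:41809935-41908424, plus strand), moved the other way. It measured 9.23, 9.41 and 8.48 CPM in the unstarved, 8.16, 9.51 and 7.55 CPM in the Cys-starved and 4.94, 5.31 and 5.15 CPM in the Thr-starved libraries. The Thr-starved libraries lay below the other 6, while the Cys-starved and unstarved values overlapped. Thr starvation lowered Sesn1 by a log2 change of -0.82 ± 0.09 (SE, adjusted p = 3e-08), 1.76-fold lower than unstarved. The Cys change of -0.11 ± 0.08 did not pass (adjusted p = 0.36), and the spread of the Cys-starved libraries was the widest of any gene and group here, at a coefficient of variation of 11.9%.

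Sesn3, a FOXO target in other cells (ENSMUSG00000032009, chr9:14275067-14333101, plus strand), measured 21.3, 24.7 and 21.1 CPM in the unstarved libraries. The Cys-starved libraries held 27.4, 27.5 and 27.4 CPM and the Thr-starved ones 31.0, 30.3 and 29.9 CPM. The groups did not overlap, and unstarved replicate 2 stood apart from the other 2 unstarved libraries, nearer to the Cys-starved ones. The rises were 0.44 ± 0.05 with Thr and 0.29 ± 0.05 with Cys starvation on the log2 scale (SE, adjusted p = 9.1e-08 and 7.7e-05), and the direct difference between the starvations was 0.15 (adjusted p = 0.014).

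Castor1, the gene of the arginine sensor (ENSMUSG00000020424, chr11:4218225-4222409, plus strand), showed the widest gap between the starvations. The unstarved libraries held 29.3, 31.8 and 31.6 CPM, the Cys-starved ones 29.1, 27.9 and 27.6 CPM, and the Thr-starved ones 7.999, 8.35 and 8.66 CPM. Every Thr-starved library lay far below all 6 others. The Thr change was -1.88 ± 0.05 on the log2 scale (SE, adjusted p = 2.2e-18), and the Thr-starved libraries were 3.37-fold lower than the Cys-starved ones (adjusted p = 1.1e-17). The Cys change was -0.13 ± 0.05 (adjusted p = 0.028) with groups that barely missed overlapping, at 29.26 CPM in the lowest unstarved and 29.06 CPM in the highest Cys-starved library. That call was lost without Cys-starved replicate 2 or 3 (adjusted p = 0.083 and 0.1) and without unstarved replicate 2 or 3 (adjusted p = 0.12 and 0.1).

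Depdc5 encodes a subunit of GATOR1, the complex that acts on RagA and RagB (ENSMUSG00000037426, chr5:32863701-32994236, plus strand). It measured 51.2, 53.3 and 51.4 CPM in the unstarved, 48.3, 45.1 and 48.2 CPM in the Cys-starved and 36.8, 35.6 and 36.0 CPM in the Thr-starved libraries. The groups did not overlap and the Thr-starved libraries were lowest. The log2 changes were -0.53 ± 0.04 with Thr (SE, adjusted p = 2.3e-11) and -0.14 ± 0.04 after Cys withdrawal (adjusted p = 0.0041), and the Thr-starved libraries were 1.31-fold lower than the Cys-starved ones (adjusted p = 5e-09).

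**Figure D1:**
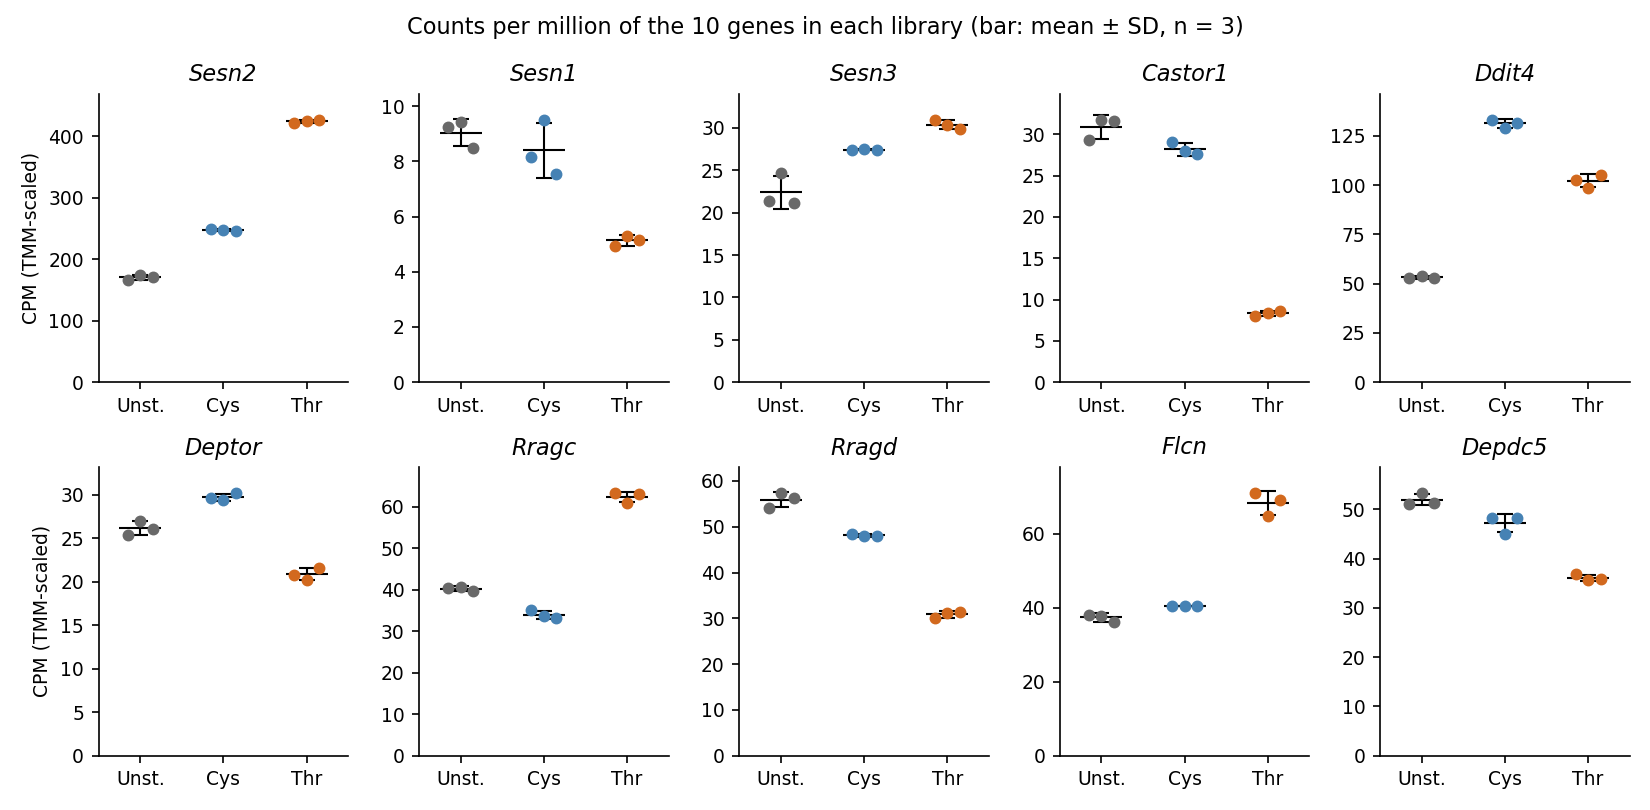
TMM-scaled CPM (y axis, from 0) of each gene in the 3 Unstarved (grey), 3 Cys-starved (blue) and 3 Thr-starved (brown-orange) libraries, with points for libraries and bars for mean ± SD. Thr-starved Sesn2 sits at 424 CPM on average against 171 unstarved, Castor1 at 8.33 against 30.9, and Sesn1 is the gene whose Cys-starved and Unstarved points overlap.

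The Rag genes split. Rragc (ENSMUSG00000028646, chr4:123917446-123936997, plus strand) encodes RagC, a partner of RagA or RagB, and measured 40.5, 40.6 and 39.6 CPM in the unstarved libraries. The Cys-starved libraries held 35.0, 33.6 and 33.1 CPM and the Thr-starved ones 63.2, 60.8 and 62.9 CPM. All Cys-starved libraries lay below, and all Thr-starved libraries above, every unstarved library. The log2 changes were 0.63 ± 0.04 with Thr (SE, adjusted p = 2.7e-13) and -0.25 ± 0.04 after Cys withdrawal (adjusted p = 9.8e-06), and the direct difference was 0.88 (adjusted p = 1.2e-15). Rragc shares 264 exon bases, 7.90% of its exon length, with 4930535I16Rik on the opposite strand. The libraries were made with a directional kit, but the strand setting of the counting is not given in the sources used here. That neighbour has no counts of its own here, so its reads cannot be told apart from those of Rragc. Reads from the shared bases may also have been left out.

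Rragd (ENSMUSG00000028278, chr4:32983037-33022180, plus strand) encodes RagD, which takes the same place as RagC in the pair and is a known target of TFEB and MITF. The values were 54.2, 57.3 and 56.2 CPM in the unstarved, 48.4, 47.9 and 48.1 CPM in the Cys-starved and 30.0, 31.1 and 31.4 CPM in the Thr-starved libraries. The groups fell in that order without overlap. The log2 changes were -0.86 ± 0.04 with Thr (SE, adjusted p = 1.9e-15) and -0.22 ± 0.03 after Cys withdrawal (adjusted p = 2.4e-05), so that Thr-starved libraries were 1.81-fold below unstarved and 1.56-fold below Cys-starved ones (adjusted p = 4.5e-13 for the last).

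Flcn encodes folliculin, which works with its FNIP partners as the GTPase activator of RagC and RagD (ENSMUSG00000032633, chr11:59791408-59810016, minus strand). It stood at 38.1, 37.8 and 36.1 CPM in the unstarved, 40.5, 40.4 and 40.4 CPM in the Cys-starved and 70.9, 64.8 and 69.1 CPM in the Thr-starved libraries. The Thr-starved libraries were higher by 0.87 ± 0.04 on the log2 scale than the unstarved (SE, adjusted p = 3.1e-15) and by 0.76 than the Cys-starved ones (adjusted p = 4e-14). The Cys change of 0.12 ± 0.04 passed the test (adjusted p = 0.021) with no overlap, but scaling by the deposited size factors gave 0.07 (adjusted p = 0.15). It was also lost without Cys-starved replicate 1 (adjusted p = 0.054) and without unstarved replicate 3 (adjusted p = 0.11).

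Ddit4 was the gene that Cys starvation raised most. It encodes the stress protein also known as REDD1, which restrains mTORC1 through the TSC complex and is induced by ATF4, p53 and hypoxia (ENSMUSG00000020108, chr10:59949669-59951834, minus strand). The unstarved libraries held 52.7, 54.1 and 53.01 CPM, the Cys-starved ones 133, 129 and 132 CPM and the Thr-starved ones 103, 98.6 and 105 CPM. The Cys-starved libraries were highest and the 3 groups did not overlap. The rises were 1.3 ± 0.03 with Cys (SE, adjusted p = 7.5e-19) and 0.94 ± 0.03 with Thr starvation (adjusted p = 1.8e-17), and the Thr-starved libraries were 1.28-fold lower than the Cys-starved ones (adjusted p = 2e-10). Ddit4 was the 1 gene of the 5 raised by Thr starvation that stood lower in Thr-starved than in Cys-starved libraries.

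Deptor encodes a direct inhibitor of mTOR (ENSMUSG00000022419, chr15:55112317-55259271, plus strand). It measured 25.4, 27.0 and 26.1 CPM in the unstarved, 29.6, 29.4 and 30.2 CPM in the Cys-starved and 20.8, 20.2 and 21.6 CPM in the Thr-starved libraries. The Cys-starved libraries lay above and the Thr-starved libraries below all unstarved ones. The log2 changes were 0.18 ± 0.04 with Cys (SE, adjusted p = 0.0015) and -0.32 ± 0.04 with Thr starvation (adjusted p = 1.1e-06), with a direct difference of -0.51 (adjusted p = 7.3e-10). Deptor shares 303 exon bases (3.41%) with Gm9920 on the opposite strand, and stretches of its transcript of up to 281 bases match 7 other genes at 95% identity or more, so some of its reads may have been assigned elsewhere or left out.

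**Figure D2:**
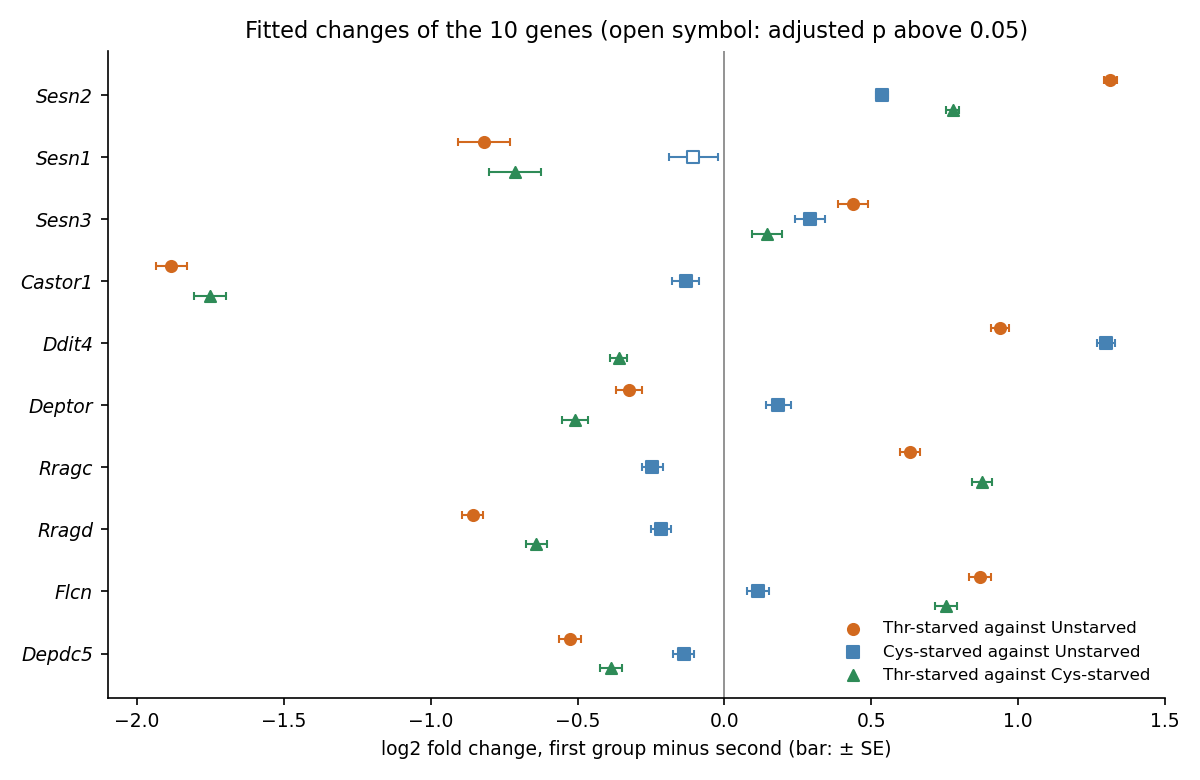
Fitted log2 fold changes (x axis, ± SE) of each gene in the 3 comparisons, with open symbols for adjusted p above 0.05. Sesn1 with Cys starvation, at -0.11, is the single open symbol, and Rragc (0.63 and -0.25) and Deptor (-0.32 and 0.18) have Thr and Cys changes on opposite sides of 0.

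Counted over the 10 genes, Thr starvation raised 5 and lowered 5, where 31.1% of the 20143 genes tested were called higher and 31.9% lower. All 10 had groups that did not overlap, which held for 66.5% of all genes. Every one of the 10 had a mean of 5 CPM or more, and among the 11410 genes at that level 80.6% were called in either direction. The median absolute log2 change of the 10 was 0.84, against 0.31 for genes at that level and 0.39 for all genes. At the level of these genes most genes were called, so the count itself says little about the 10. The 10 were chosen with earlier results of these data known. A median above that of other genes, here and in the comparisons below, is therefore a description and no test of the set.

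Cys starvation raised 5 and lowered 4 of the 10, where 17.5% of genes were called higher and 18.8% lower. The groups of 9 did not overlap, against 46.4% of all genes, and 55.0% of genes at a mean of 5 CPM or more were called. The median absolute log2 change was 0.20 over the 10, against 0.13 at that level and 0.17 for all genes. Scaled by the deposited size factors in place of TMM, the split over all genes moved from 3523 higher and 3790 lower to 2787 higher and 4786 lower, and the 10 genes were called 4 higher and 4 lower.

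Between the starvations, 4 of the 10 were higher and 6 lower in Thr-starved libraries, where 30.4% of genes were called higher and 31.6% lower. All 10 did not overlap, against 65.8% of all genes, and 80.6% of genes at 5 CPM or more were called. The median absolute log2 difference was 0.68, against 0.29 at that level and 0.36 for all genes. The Thr and Cys comparisons share their unstarved libraries, so their values are given side by side only.

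Levels of different genes were compared per kilobase of annotated exons. In unstarved cells Sesn2 was the highest of the 10, at 49.1 ± 1.1 CPM per kilobase (SD, n = 3). Ddit4 followed at 30.4, Castor1 at 19.6, Rragc at 12.0, Rragd at 10.8 and Flcn at 8.64. Depdc5 at 4.41, Deptor at 2.95, Sesn1 at 2.27 and Sesn3 at 1.47 CPM per kilobase closed the order, and no neighbours in it overlapped over the 3 libraries.

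In Cys-starved cells Ddit4, at 74.7 ± 1.27 CPM per kilobase, stood above Sesn2, at 71.2 ± 0.40. Castor1 kept the next place at 17.9, and Flcn (9.36) and Rragd (9.30) overlapped. In Thr-starved cells the order was Sesn2 at 122 ± 0.69, Ddit4 at 58.2, Rragc at 18.7 and Flcn at 15.8 CPM per kilobase, and Castor1, at 5.29, had dropped below Rragd, at 5.96. Sesn3 (1.99) stood above Sesn1 (1.29) there, the reverse of their order in the other groups.

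The order of Sesn1 and Sesn3 rests on the length used. Sesn3 has 7 annotated transcripts and 15269 bases of exons in all, but its longest transcript has 9125 bases, and with that length its level was 2.45 CPM per kilobase in unstarved, 3.01 in Cys-starved and 3.33 in Thr-starved cells. Depdc5, with 19 transcripts, moved from 4.41 to 6.32 CPM per kilobase in unstarved cells by the same choice.

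**Figure D3:**
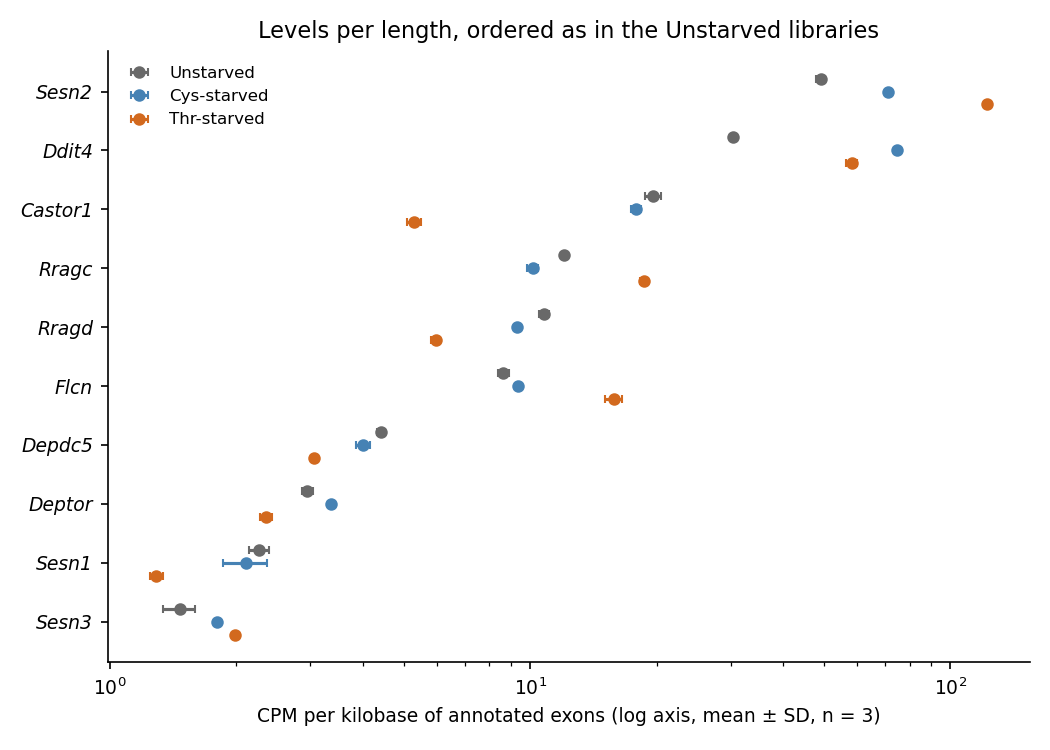
Mean level of each gene in CPM per kilobase of annotated exons (log axis, ± SD, n = 3) in the 3 groups, with genes in the order of the Unstarved libraries. Castor1 falls from 19.6 to 5.29 and Rragd from 10.8 to 5.96 with Thr starvation, where Rragc stands at 18.7 and Flcn at 15.8.

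Within each library 10 measures combining levels per length were taken and compared between the groups in 3 comparisons. The 7 ratios and shares among them do not depend on the scaling between libraries, while the 3 summed levels do. All 10 rest on the length of all annotated exons and are given for that length only. With the shorter longest transcript of Sesn3, its share would be larger. For all of them an exact two-sided permutation test of 3 against 3 libraries cannot go below p = 0.1. Sesn2 made up 92.9 ± 0.36% of the summed sestrin level per length in unstarved, 94.8 ± 0.32% in Cys-starved and 97.4 ± 0.03% in Thr-starved libraries (SD, n = 3). The Sesn1 share fell from 4.30% to 2.81% and 1.03% in the same order, with no overlap in any of the 3 pairs of groups (exact p = 0.1 each). The summed sestrin level rose from 52.8 to 75.1 and 125 CPM per kilobase.

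The level of Rragd over that of Rragc was 0.865, 0.911 and 0.917 in the unstarved libraries and 0.891, 0.920 and 0.937 in the Cys-starved ones, which overlapped (exact permutation p = 0.4). In Thr-starved libraries it was 0.307, 0.330 and 0.322, well below all others (exact p = 0.1, the smallest possible). Rragc and Rragd summed to 22.9 CPM per kilobase unstarved, 19.5 Cys-starved and 24.6 Thr-starved. The summed level of their partners Rraga and Rragb was 67.0, 66.5 and 96.0 CPM per kilobase in the same order, and its Cys-starved and unstarved values overlapped.

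Sesn2 encodes a leucine sensor and Castor1 an arginine sensor. The level of Sesn2 over that of Castor1 rose from 2.51 ± 0.07 unstarved to 3.98 ± 0.09 with Cys and 23.1 ± 0.78 with Thr starvation (SD, n = 3, exact permutation p = 0.1 for each pair). Castor2, the paralog of Castor1, was at 0.0482 of its level unstarved, 0.0572 Cys-starved and 0.0749 Thr-starved, and the last 2 groups overlapped. Depdc5 over the mean of the other GATOR1 genes, Nprl2 and Nprl3, was 0.964 ± 0.07, 0.860 ± 0.03 and 0.737 ± 0.01 in the same order, with no overlap.

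**Figure D4:**
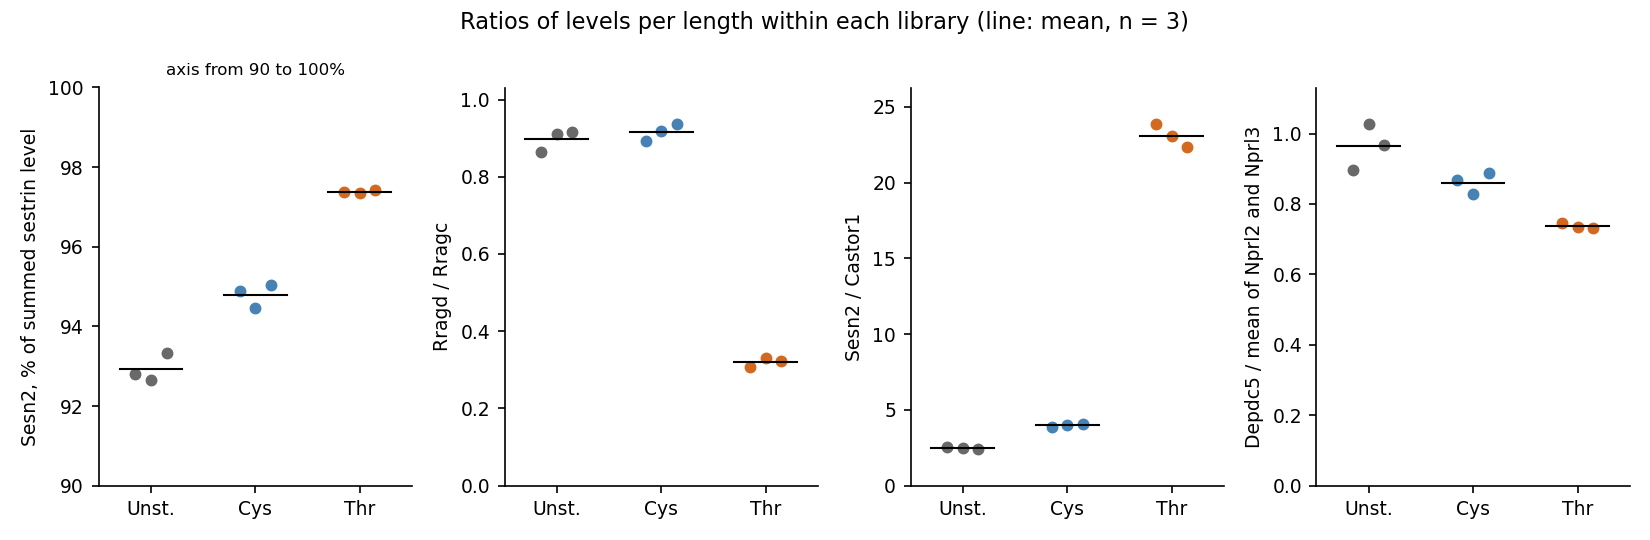
Ratios of levels per length within each library (points) with group means (lines, n = 3). The first panel runs from 90 to 100% and shows the Sesn2 share at 92.9, 94.8 and 97.4%, and the second shows Rragd over Rragc at 0.898 and 0.916 in Unstarved and Cys-starved libraries against 0.320 in Thr-starved ones.

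For Sesn2, Sesn3 and Ddit4, the genes with the most similar profile were sought among the 11410 genes at a mean of 5 CPM or more, by the root mean square difference of centred log2 levels over the 9 libraries. Nearest to Sesn2 were 0610030E20Rik (0.0345), Med20 (0.0428) and Ccn2 (0.0461). Nearest to Sesn3 were Kctd2 (0.0401), Adar (0.0449) and Zfp729a (0.0472). Ddit4 had no neighbour as close, with Aldh1l2 at 0.0750, Zfp516 at 0.129 and Trib3, a known ATF4 target, at 0.130. These distances are on the log2 scale over shared libraries and describe likeness of pattern only.

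Of 47 other genes of the pathway, Thr starvation raised 25 and lowered 16 (median log2 change 0.20), and Cys starvation raised 10 and lowered 13 (median 0.03). Among genes at a mean of 5 CPM or more, 80.6% were called with Thr and 55.0% with Cys starvation in either direction. Over all genes tested, 31.1% were called higher and 31.9% lower with Thr starvation, and the counts by complex are a description beside these shares. By complex, with Thr starvation, 5 of 7 Rag and Ragulator genes, 5 of 6 genes in the TSC and RHEB list and 7 of 9 mTORC1 substrates rose. The TSC and RHEB list also holds Ddit4l, which belongs to neither and is counted among the genes that rose. None of the 4 mTORC1 subunit genes rose and Rptor and Mlst8 fell, while Mtor itself was at 93.6 against 93.7 CPM (adjusted p = 0.93 for a log2 change of -0.01). GATOR2 genes split into 2 higher and 3 lower, GATOR1 genes Nprl3 and Nprl2 into 1 each, KICSTOR genes into 2 higher and 1 lower of 4, and mTORC2 subunit genes into 1 higher and 3 lower of 4. Of the folliculin partners Fnip1 rose and Fnip2 did not pass, and of 4 sensors and their partners Lars rose and Castor2 and Slc38a9 fell.

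Calls were fewer with Cys starvation over all genes too (17.5% higher and 18.8% lower, against 31.1% and 31.9% with Thr). By complex, no Rag or Ragulator gene rose and 2 of 7 fell, no GATOR2 gene rose and 4 of 5 fell, and 3 of 4 KICSTOR genes rose. The other lists had 1 higher and 1 lower of 4 sensors and partners, 1 higher of the GATOR1 pair, 1 lower of the folliculin partners, 1 higher and 3 lower of 6 in the TSC list, 1 lower of 4 mTORC1 subunits, 1 higher of 4 mTORC2 subunits and 3 higher and 1 lower of 9 substrates. Between the starvations, 22 of the 47 were higher and 17 lower in Thr-starved libraries, beside 30.4% and 31.6% of all genes.

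Among these 47 genes, the one that rose most with both starvations was Itfg2, a subunit of KICSTOR, the scaffold that brings GATOR1 to the lysosome. It went from 32.8 ± 1.21 CPM unstarved to 60.4 ± 1.58 with Cys and 110 ± 2.16 with Thr starvation (SD, n = 3), log2 changes of 0.88 and 1.75 (adjusted p = 9.4e-15 and 3.3e-21). Mitf (0.65) and Ddit4l (0.63), the paralog of Ddit4, followed with Thr starvation. Ddit4l fell with Cys starvation (-0.33, adjusted p = 0.0037), the direction opposite to that of Ddit4, and its direct difference between the starvations was 0.96 (adjusted p = 6.7e-10).

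The largest falls with Thr starvation among the 47 were those of Prr5, a subunit gene of mTORC2, at -1.46 (15.3 to 5.52 CPM), Castor2 at -1.27 (7.14 to 3.00 CPM) and Rhebl1 at -0.64 (21.8 to 13.9 CPM). Castor2 thus fell with its paralog Castor1. With Cys starvation the largest falls among the 47 were those of Bmt2 (-0.38), the gene of the S-adenosylmethionine sensor SAMTOR, Ddit4l and Wdr59 (-0.27), a GATOR2 subunit gene. The other large rises with Cys starvation were Prr5l (0.54) and Grb10 (0.38). Between the starvations Mios, a GATOR2 subunit gene, was 0.61 higher and Prr5l 0.80 lower on the log2 scale in Thr-starved libraries.

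**Figure D5:**
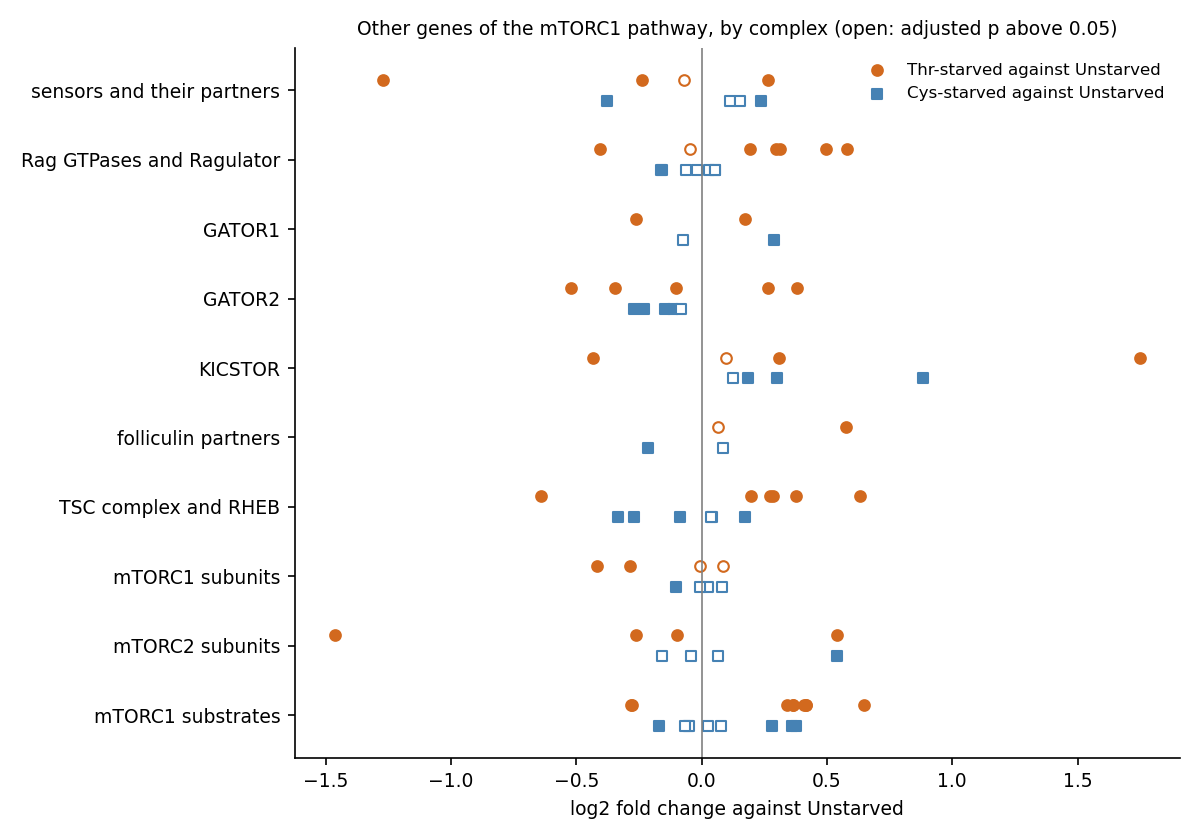
Log2 fold changes against Unstarved of the 47 other pathway genes by complex, for Thr (circles) and Cys starvation (squares), with open symbols for adjusted p above 0.05. Itfg2 stands out in the KICSTOR row at 1.75 and 0.88, and Prr5 (-1.46) and Castor2 (-1.27) are the lowest circles.

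Genes of known regulators were set beside the members, as a description. Over all genes tested, 31.1% were called higher and 31.9% lower with Thr starvation, and 17.5% higher and 18.8% lower with Cys starvation. Among genes at a mean of 5 CPM or more, 80.6% were called with Thr and 55.0% with Cys starvation in either direction. Of 12 ATF4 targets, 10 rose and 2 fell with Thr starvation (median log2 change 0.99), and 11 rose and none fell with Cys starvation (median 0.81). Trib3 rose by 1.08 and 1.12 and Ddit3, the gene of CHOP, by 2.46 and 0.24. The 2 that fell with Thr starvation were Slc7a11 (-0.21) and Phgdh (-0.26), and Atf5 did not pass with Cys starvation. Of 14 p53 targets, 12 rose with Thr starvation (median 1.15), Cdkn1a by 1.66 and Mdm2 by 1.41, and Bax (-0.07) and Perp (-0.30) fell. Fas, counted among the 12, reached only 0.40 CPM in Thr-starved libraries. With Cys starvation 2 of the 14 rose and 8 fell (median -0.14). Of the members known as p53 targets, Sesn1 fell with Thr starvation (-0.82), while Sesn2 (1.31) and Ddit4 (0.94) rose. With Cys starvation Sesn2 (0.54) and Ddit4 (1.3) rose and Sesn1 did not pass.

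Beside the same shares, of 11 tested targets of TFEB and its relatives, the MiT/TFE factors, 8 rose and none fell with Thr starvation (median 0.66). With Cys starvation 1 rose and 3 fell (median 0.05). The largest rises with Thr starvation were those of Hexa, a lysosomal enzyme gene (1.20), and Mcoln1, a lysosomal channel gene (0.97). Sqstm1 (0.04), Wipi1 (0.11) and Gabarapl1 (-0.07) did not pass, and Gpnmb, counted among those that rose, reached only 1.00 CPM. Of the 10 genes, Flcn and Rragc rose with Thr starvation while Rragd fell. Of 8 FOXO targets, 3 rose and 5 fell with Thr and 3 rose with Cys starvation (medians -0.25 and 0.19). Of the 7 regulator genes themselves, Thr starvation raised Atf4 (0.74), Trp53 (0.41), Foxo3 (1.00), Hif1a (0.31) and Nr3c1 (0.41) and lowered Foxo1 (-0.35) and Foxo4 (-0.55). Cys starvation raised 4 of the 7 and lowered Trp53 (-0.10) and Foxo4 (-0.12). The part of these factors in the changes of the 10 genes was not tested.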

How the data were processed

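Poly(A) RNA of 9 E14 samples (3 Thr-starved, 3 Cys-starved, 3 unstarved) was sequenced from both ends. The authors mapped the reads to GRCm38 with STAR 2.7.4a, made the counts per gene with HTSeq and deposited them raw; strand and overlap settings were not given. The deposited signal table holds the same counts divided by the size factors of DESeq2 (listed as DESeq 1.30.1, R 4.0.3) and served only for an alternative scaling. Even numbers made up 67.8% of the counts from 1 to 20, so most fragments may have been counted as 2 reads.

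The 20143 genes with any count in the 9 libraries, a minimum of 1 in all, were tested with edgeR 4.0.16 in R 4.3.3: TMM factors, the quasi-likelihood test, all libraries in 1 fit and Benjamini-Hochberg adjustment at 0.05 per comparison. The common coefficient of variation was 3.53%. The fit was tested on simulated data. Those counts were drawn as single reads, so fragments counted as 2 reads were not covered. Names, exons and overlaps came from GENCODE M21 (20171 identifiers matched, 18 not), similar sequence from BLAST (95% identity over 86 bases), and promoters from RefSeq. Alternatives were DESeq2 1.42.0, RLE scaling, the deposited size factors, filterByExpr, fits of the 2 groups alone, the replicate block, halved counts, each fit without 1 library, and the length of the longest transcript.

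All members were named. Of the pathway lists, the 3 called genes with the largest rise and the 3 with the largest fall in each comparison, at a mean of 5 CPM or more, were named; other list genes in the text were picked as examples after their values were seen. The members and lists were chosen with earlier results of these data known. Same-group libraries differed by more than counting noise (chi-square per gene of 2.61 to 5.22 for pair counts from 2000 to 20000, where noise of single reads gives 1 and of read pairs 2), so none was counted as a duplicate. Counting error and, at 3 libraries a group, the spread between samples set the precision.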

Additional observations from a re-analysis of the deposited data

Results flagged for a closer look

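For 2 of the 10 genes both starvations changed the level, in opposite directions, and the difference between the starvations was itself tested with edgeR's quasi-likelihood test. Rragc was raised by the lack of Thr and lowered by that of Cys, and the Thr-starved libraries (60.8 to 63.2 CPM) stood 0.878 above the Cys-starved ones (33.1 to 35.0 CPM) on the log2 scale (adjusted p = 1.2e-15). Deptor fell with Thr and rose with Cys starvation, with a difference of -0.508 (20.2 to 21.6 against 29.4 to 30.2 CPM, adjusted p = 7.3e-10). Both directions were kept in all 16 alternatives of each comparison. Both genes share exon bases with a gene on the opposite strand, 7.90% of the exon length for Rragc and 3.41% for Deptor, and the part of these neighbours in the counts was not tested.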

How the results depend on the processing

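Over 16 alternatives in each of the 3 comparisons, no log2 change of the 10 genes turned its direction, 473 values kept their side of the threshold and 7 did not, and the numbers of members and of pathway genes called stayed within 1.5 times, with 7 to 9 members called for Cys. The 7 lost calls were small Cys changes. That of Castor1 was lost in 4 of the fits without 1 library (adjusted p = 0.083 to 0.12). That of Flcn was lost with the deposited size factors (0.07, adjusted p = 0.15) and in 2 fits without 1 library (adjusted p = 0.054 and 0.11). The replicate numbers showed no shared signal: the deviations of same-numbered libraries correlated at -0.244 to 0.106. A library correlated best with its own number in 2 of 18 cases. Pairs set up together with little in common would look the same, so these values do not settle whether the numbers mark pairs. With the replicate block, 10 members were called with Thr, 9 with Cys and 10 between the starvations, and 41, 23 and 38 of the pathway genes (41, 23 and 39 without it). Over all genes the block gave 12488, 7063 and 12334 calls against 12689, 7313 and 12488. The deposited size factors gave 6756 higher and 5862 lower genes between the starvations, against 6123 and 6365, and moved the median log2 change of all genes by under 0.1. Under another length or scaling, 35 levels per length moved by less than 1 SD and 25 by more, by length up to 2.45, 3.01 and 3.33 CPM per kilobase for Sesn3 in unstarved, Cys-starved and Thr-starved cells.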
